A study of Homo sapiens with 24 samples.

Results

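The genes described here are 52 ribosome biogenesis factors, taken by name from the 60655 genes of a deposited count table after its Ensembl identifiers had been matched to symbols. They encode subunits and initiation factors of RNA polymerase I and proteins that process ribosomal RNA (rRNA) and assemble the ribosomal subunits. Messenger RNA was counted in 24 libraries of 2 human leukaemia lines. NB4 comes from acute promyelocytic leukaemia, and HL-60 stands for acute myeloid leukaemia of the other kinds and is called a promyeloblast in the labels. Both lines are labelled wild type, and each was left untreated, given 1 µM all-trans retinoic acid (ATRA), given 0.8 µM arsenic trioxide (ATO), or given the pair together, each treatment lasting 48 h. Each of the 8 groups held 3 libraries, which the labels call batches without saying that they are separate cultures, so p-values measure the spread between these samples, which may be technical. The labels give neither the doses inside the combination nor the culture time of the untreated cells, and each line is a single model of its disease.

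Ribosomes are built in the nucleolus. RNA polymerase I transcribes a long precursor there, small nucleolar ribonucleoproteins (snoRNPs) modify it, a large particle called the small-subunit processome folds and cleaves it, and separate sets of factors carry the small and the large subunit to the cytoplasm. Most of these factors leave the particle again and are not part of the finished ribosome. Growing cells use much of their energy on this pathway, many of its genes are direct targets of the transcription factor MYC, and the pathway is known to decline as myeloid precursors mature.

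All 52 genes were found, and 51 passed the filter on low counts in each fit. PWP2, a processome subunit, held 0 to 10 reads per library and was not tested. Whether so few reads reflect its expression or the way reads were counted was not examined. NOP2 held 18 to 76 reads and PPAN 184 to 563. The exons of NOP2 overlap AC006064.6 on the same strand over 54.41% of their bases. Those of PPAN overlap the readthrough gene PPAN-P2RY11 and P2RY11 over 59.78%. AC006064.6 and PPAN-P2RY11 held 0 reads in every library. With these overlaps the levels of NOP2 and PPAN are uncertain, as are those of NPM1, which has 45 named pseudogene copies. Strandedness is not given, and antisense genes cover 17.1% to 23.15% of the exon bases of HEATR1, TSR1, NOB1, NIP7, NOP16, EBNA1BP2, POLR1C and NOP14, so reads of those partners cannot be told apart from theirs.

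Library totals ran from 37811652 to 57795273 counts. Of the myeloid marker genes, 9 of 10 in NB4 and 10 of 10 in HL-60 reached 1 CPM (counts scaled to library size) in untreated cells, and 5 erythroid genes were at 0 in every library. Replicate 2 of NB4 with ATRA and replicate 2 of HL-60 with both drugs stood apart from the others of their groups: the chi-square per degree of freedom was 20.5 and 39.3 against 15.5 in the first group, and 25.9 and 18.4 against 5.68 in the second. Without the former library, as without any 1 of the 6 compared, 50 members instead of 51 were called lower under ATRA in NB4. Without the latter, 36 members instead of 38 were called lower under the combination in HL-60, and 3 were higher in both cases.

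In NB4 the ribosome biogenesis genes fell with each drug and fell furthest with the pair, whereas in HL-60 they fell less with ATRA and with the pair, by the tests of line differences given further on. Together they held 1.57% ± 0.0309 (SD, n = 3) of all counts in untreated NB4 cells, 0.798% ± 0.0644 with ATRA, 1.16% ± 0.0174 with ATO and 0.567% ± 0.0259 with both. In HL-60 the share was 1.41% ± 0.00544 in untreated cells, 1.06% ± 0.00104 with ATRA, 1.17% ± 0.00734 with ATO and 1.01% ± 0.0145 with both. The mean level followed the order untreated, ATO, ATRA, combination, from high to low, for 48 of the 52 genes in NB4 and for 15 in HL-60. This order was not counted over all genes, so no background share can be set beside it, and the 52 include the untested PWP2. In bulk RNA, fewer cells that express a gene and less RNA per cell cannot be told apart.

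The promoters were examined because the members moved together. RefSeq windows (GRCh38.p14), reaching from 250 bases before to 50 bases after the transcription start, were at hand for 41 of the 52 genes and not for POLR1E, NOLC1, NOP58, DCAF13, MPHOSPH10, DDX52, RRP12, BOP1, RRP1B, DDX18 and RRS1. The motif searched was CACGTG, the palindromic E-box, which reads the same on both strands and is the best-known binding sequence of MYC with its partner MAX. It was present in 21 of the 41 genes (51.2%), against 8.77% of 27305 genes with a window and 12.3% of the 10945 tested in NB4. The motif began within 50 bases of the start in 19 of the 21 genes. This span was not counted over all genes, so no background share can be set beside it. A match is only a description of the letters.

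The 5 members with the largest falls under the combination in NB4 all held the motif. Of the members that came next, RRP9 (-1.73) held it, whereas POLR1B (-1.77) and DDX10, NPM1 and NCL (each -1.70) did not. The sites of the first 5 are shown first, followed by 4 more. Each has up to 12 bases on either side, written 5′ to 3′ on the strand of the gene, with the E-box in capitals. The sites lie at chr4:4290068-4290097 (minus strand) for LYAR, chr3:52686026-52686055 (plus strand) for GNL3, chr12:101280083-101280112 (plus strand) for UTP20, chr1:19251807-19251836 (plus strand) for MRTO4, chr10:68956604-68956633 (plus strand) for DDX21, chr2:28894658-28894687 (plus strand) for WDR43, chr2:68157885-68157914 (plus strand) for PNO1, chr22:30591880-30591909 (minus strand) for PES1 and chr19:39846356-39846385 (minus strand) for FBL.
LYAR: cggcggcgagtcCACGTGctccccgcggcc
GNL3: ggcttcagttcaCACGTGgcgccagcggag
UTP20: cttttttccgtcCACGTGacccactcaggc
MRTO4: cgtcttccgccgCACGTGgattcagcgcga
DDX21: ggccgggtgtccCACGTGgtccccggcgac
WDR43: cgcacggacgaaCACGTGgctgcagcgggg
PNO1: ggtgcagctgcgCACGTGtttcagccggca
PES1: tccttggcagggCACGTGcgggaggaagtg
FBL: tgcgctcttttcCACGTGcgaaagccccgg
Beyond the shared letters the flanks of these 9 sites differ from each other.

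A pair of promoters is shown whole over the 250 bases before the start, since both genes fell steeply under the NB4 combination (-2.10 for UTP20 and -1.70 for NCL) and only the first holds the motif. UTP20 lies at chr12:101279855-101280104 on the plus strand, with 47.6% G and C, and carries the E-box in capitals near its end. NCL lies at chr2:231464485-231464734 on the minus strand, with 72% G and C, and has no E-box in its window.
UTP20: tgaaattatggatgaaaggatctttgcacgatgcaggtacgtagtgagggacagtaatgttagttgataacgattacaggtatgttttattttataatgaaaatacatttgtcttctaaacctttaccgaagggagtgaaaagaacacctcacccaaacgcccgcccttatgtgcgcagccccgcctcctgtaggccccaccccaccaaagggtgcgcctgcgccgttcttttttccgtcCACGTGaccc
NCL: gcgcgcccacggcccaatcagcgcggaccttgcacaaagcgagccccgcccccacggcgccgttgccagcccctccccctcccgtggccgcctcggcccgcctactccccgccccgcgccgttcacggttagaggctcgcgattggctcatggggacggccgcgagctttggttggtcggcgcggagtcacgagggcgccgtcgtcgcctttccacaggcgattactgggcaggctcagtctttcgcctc

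By role, the E-box was present in 10 of 14 processome genes, 6 of 11 large-subunit genes, 2 of 5 pre-40S genes, 1 of 4 scaffold genes, both cofactor genes (DDX21 and LYAR) and 0 of 5 genes of Pol I transcription. It lay in the 50 bases after the start in 34.1% of the members with a window, against 1.12% of all genes. The upstream part alone held it in 9 members (22%), against 7.73% of all genes. Among 107 other ribosome biogenesis genes 22.4% had it, and among 63 genes of ribosomal proteins 6.35%. The changes of members with and without the motif had close medians: under the combination in NB4 the median log2 change was -1.47 in 20 tested members with it and -1.45 in 20 without it, and in HL-60 it was -0.42 and -0.36.

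**Figure D1:**
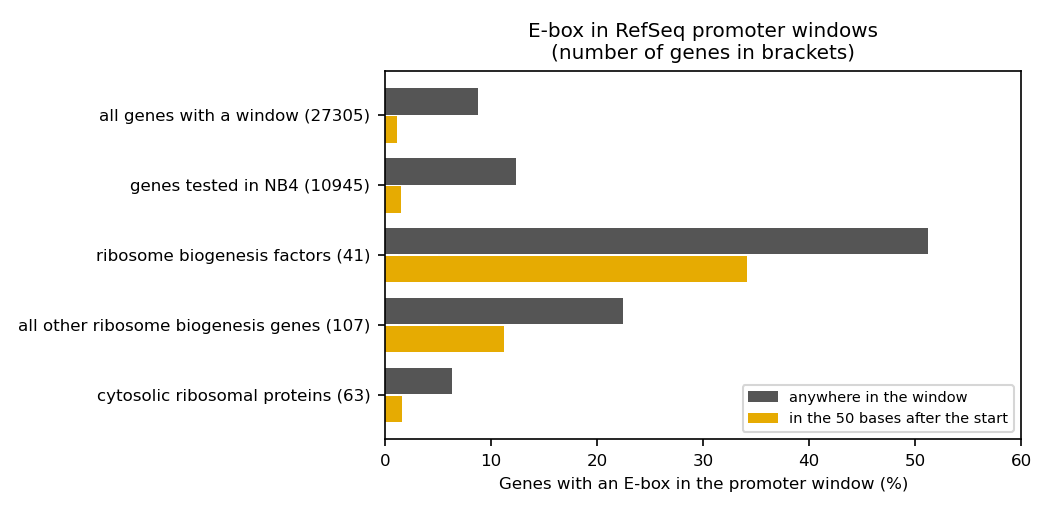
Share of genes (%) with an E-box in the RefSeq promoter window, for 5 sets of genes with the number of genes in brackets; grey bars count the whole window and yellow bars the 50 bases after the start. The ribosome biogenesis factors stand at 51.2% and 34.1%, all genes at 8.77% and 1.12%.

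For each treatment against untreated cells of the same line, a change is the log2 change from edgeR's quasi-likelihood test. Its standard error (SE), which edgeR does not report, was taken as the absolute log2 change divided by the square root of the test's F value. Adjusted p-values are Benjamini-Hochberg values over all genes tested, and a gene was called below 0.05. Levels are CPM after TMM scaling, given in the order of replicates 1, 2 and 3.

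Under ATRA in NB4, 51 of 51 tested members were called lower, beside 28.6% of all genes tested (59.9% were called either way), with a median log2 change of -0.83 against 0.028 over all genes, and 15 had fallen at least 2-fold, beside 7.01% of all genes. Under ATO 45 were lower, 0 higher and 6 not called, beside 19.6% lower among all genes, and the median was -0.37 against 0.02. None of them fell 2-fold (0 of 51, beside 1.94%). With scaling by library sizes alone 37 members were lower under ATO, and the share of higher genes among all calls went from 51.9% to 69%. With both drugs 51 of 51 were lower, beside 32.8% lower, 35.4% higher and 68.2% called either way among all genes, the median was -1.39 against 0.05, and 46 had fallen at least 2-fold, beside 12.1% of all genes. The 6 members not called under ATO were RRN3, FBL, DDX52, BYSL, NOB1 and NOP2. All 3 treated libraries lay below all 3 untreated ones for 51 members with ATRA, 47 with ATO and 52 with both, beside 31.3%, 25.9% and 34.4% of all genes.

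In HL-60 ATRA left 42 members lower, 0 higher and 9 not called, beside 23.3% lower among all genes, with a median of -0.35 against 0.009. ATO left 43 lower, 0 higher and 8 not called, beside 12.1% lower and 28.7% called either way, with a median of -0.27 against 0.02. The combination left 38 lower, 3 higher and 10 not called, beside 29.7% lower and 30.7% higher among all genes, with a median of -0.36 against -0.003. The 3 members that rose were the Pol I initiation factor gene RRN3 and the processome genes DCAF13 and DDX52. Treated libraries all lay below the untreated ones for 44, 46 and 41 members, beside 28.4%, 21% and 31.3% of all genes.

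**Figure D2:**
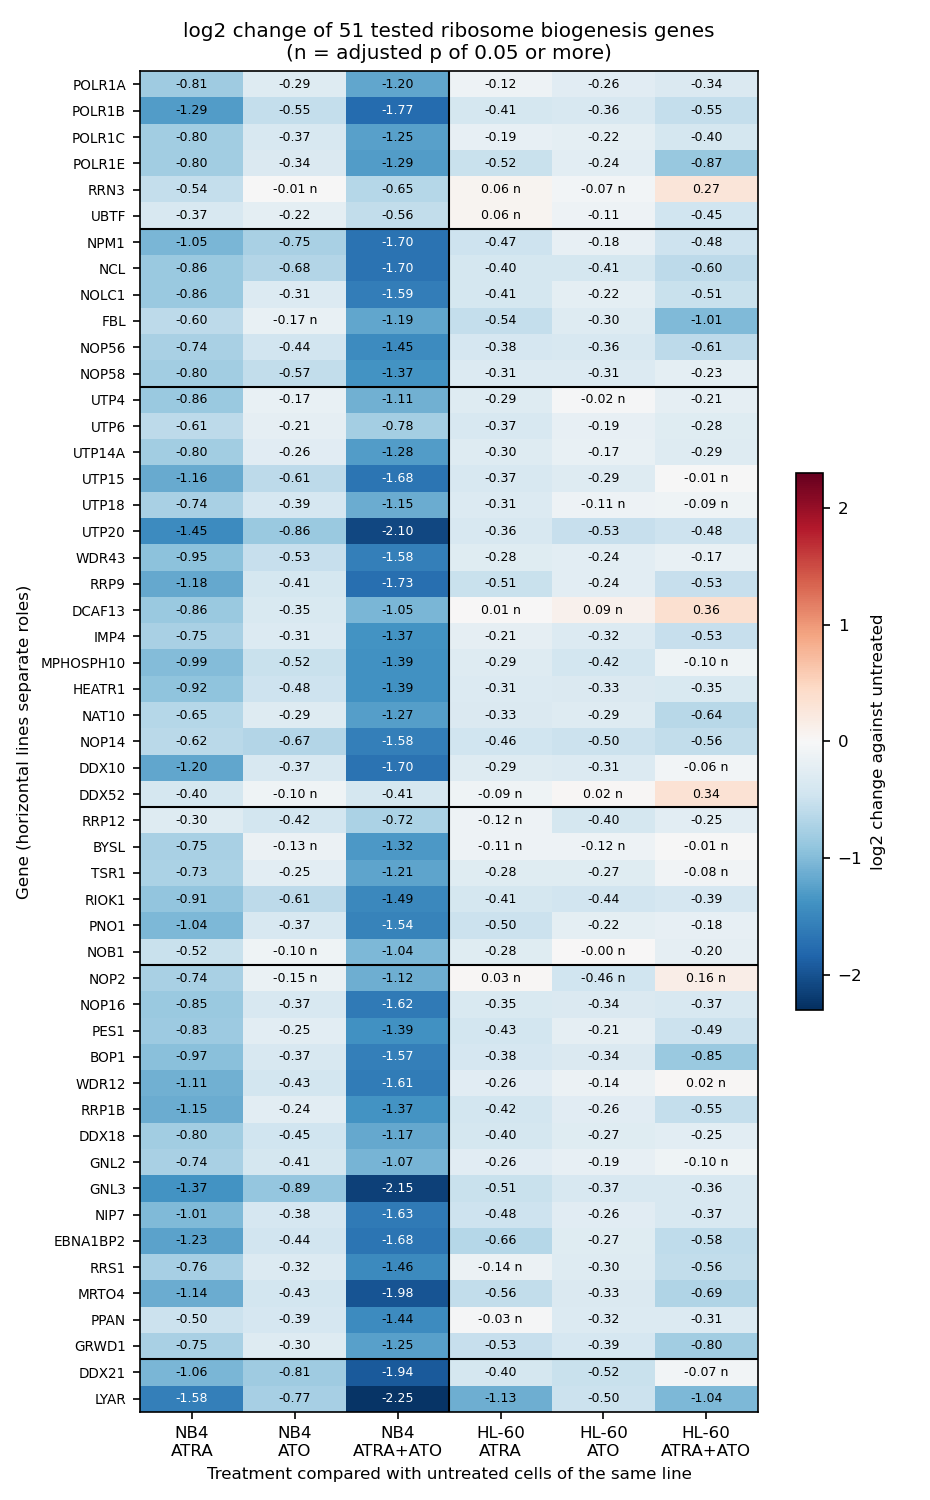
log2 change of each of the 51 tested members (rows, grouped by role) under ATRA, ATO and both drugs against untreated cells in NB4 and HL-60 (columns); blue is lower, red higher, and n marks an adjusted p of 0.05 or more. The NB4 combination column is blue throughout, from -0.41 to -2.25, and the HL-60 combination column holds 3 called rises.

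Genes of RNA polymerase I transcription fell together in NB4, with 6 of 6 lower under ATRA, 5 of 6 under ATO and 6 of 6 under the combination, the median of the last being -1.22. POLR1B, the second-largest subunit of the polymerase, stood in NB4 at 160, 160 and 157 in the untreated libraries, 60.3, 68.4 and 63.7 with ATRA, 111, 106 and 112 with ATO and 46.2, 51.7 and 42.7 with both drugs. The libraries of its 4 groups did not overlap, and its change under the combination was -1.77 ± 0.072 (adjusted p = 1.73e-15), the largest of the 6. In HL-60 it stood at 171, 180 and 168 in the untreated libraries, 127, 130 and 132 with ATRA, 134, 138 and 129 with ATO and 120, 113 and 117 with both drugs, all treated libraries below the untreated ones.

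POLR1A, the largest subunit, stood in NB4 at 194, 198 and 201 in the untreated libraries, 115, 109 and 110 with ATRA, 163, 165 and 163 with ATO and 93.6, 87.8 and 78.2 with both drugs. Its libraries again formed 4 separate groups, with a change of -1.20 ± 0.065 under the combination. In HL-60 the ATRA libraries (200, 195 and 186) lay just under the untreated ones (221, 203 and 211), and the call under ATRA, -0.12 ± 0.046, was lost without any of 4 single libraries, namely untreated replicates 1 and 3 and ATRA replicates 2 and 3. POLR1C, a subunit shared with RNA polymerase III, and POLR1E, a subunit of the polymerase's dissociable pair, changed by -1.25 and -1.29 under the NB4 combination and by -0.40 and -0.87 under that of HL-60.

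RRN3, the factor that makes the polymerase competent to start, fell with 2 of the 3 treatments in NB4 and rose with 1 in HL-60. In NB4 it stood at 61.2, 60.8 and 58.4 in the untreated libraries, 40.2, 41.4 and 41 with ATRA, 58.4, 63.3 and 59.7 with ATO and 38.3, 41.5 and 35.9 with both drugs, so that the ATO libraries overlapped the untreated ones and the ATRA and combination libraries lay below both. Its HL-60 libraries were at 51.1, 52.6 and 52.7 in the untreated libraries, 55, 54.6 and 51.9 with ATRA, 48.2, 49.7 and 50.3 with ATO and 61.8, 62.4 and 62.3 with both drugs, and the combination libraries were above all others (log2 change 0.27 ± 0.053, adjusted p = 0.000132). The annotation names 2 pseudogenes of RRN3, so its level may hold reads from near copies.

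UBTF, which coats the active rRNA genes, had the second-smallest fall of all members under the NB4 combination. It stood in NB4 at 226, 231 and 231 in the untreated libraries, 183, 169 and 174 with ATRA, 202, 192 and 203 with ATO and 158, 161 and 152 with both drugs, a log2 change of -0.56 ± 0.056 with both drugs. HL-60 libraries held it at 265, 262 and 257 in the untreated libraries, 268, 273 and 270 with ATRA, 242, 240 and 236 with ATO and 192, 192 and 182 with both drugs. There the ATRA libraries were all above the untreated ones by a small step (0.06 ± 0.04, adjusted p = 0.254), and the combination libraries lay well below them (-0.45 ± 0.041). Its call under ATO in HL-60, -0.11 ± 0.04, was lost when any 1 of 5 libraries was left out, namely each ATO replicate and untreated replicates 1 and 2.

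The nucleolar scaffold and box C/D snoRNP genes were among the most abundant members. Per exon length, NPM1 held 2790 ± 94.3 TPM (transcript share scaled by exon length; SD, n = 3) in untreated NB4 cells, NCL 1550 ± 56.7, DDX21 1120 ± 73 and NOLC1 751 ± 24.4, the 4 highest members on this scale. All 6 genes of the group were lower in NB4 with ATRA and with both drugs, 5 of 6 with ATO, and all 6 in HL-60 with each treatment. The median change under the combination was -1.52 in NB4 and -0.55 in HL-60.

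NPM1, a histone chaperone that gives the nucleolus its outer layer, stood in NB4 at 2890, 2820 and 2690 in the untreated libraries, 1280, 1490 and 1240 with ATRA, 1620, 1790 and 1630 with ATO and 916, 818 and 870 with both drugs. The 4 groups did not overlap, and the combination left 30.8% of the untreated level (-1.70 ± 0.068, adjusted p = 1.33e-15). In HL-60 the libraries were at 2660, 2740 and 2710 in the untreated libraries, 1920, 1960 and 1950 with ATRA, 2340, 2400 and 2360 with ATO and 1950, 1900 and 1900 with both drugs, where the ATRA and combination libraries overlapped. NCL, which encodes nucleolin, an RNA chaperone of early rRNA processing, stood in NB4 at 2790, 2890 and 2800 in the untreated libraries, 1490, 1700 and 1410 with ATRA, 1770, 1840 and 1720 with ATO and 920, 878 and 825 with both drugs. It was left at 30.8% of the untreated level as well, and the promoter printed above is its own. In HL-60 its libraries were at 2470, 2460 and 2520 in the untreated libraries, 1850, 1920 and 1860 with ATRA, 1860, 1860 and 1840 with ATO and 1670, 1540 and 1650 with both drugs, so that the combination lay below both single drugs.

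**Figure D3:**
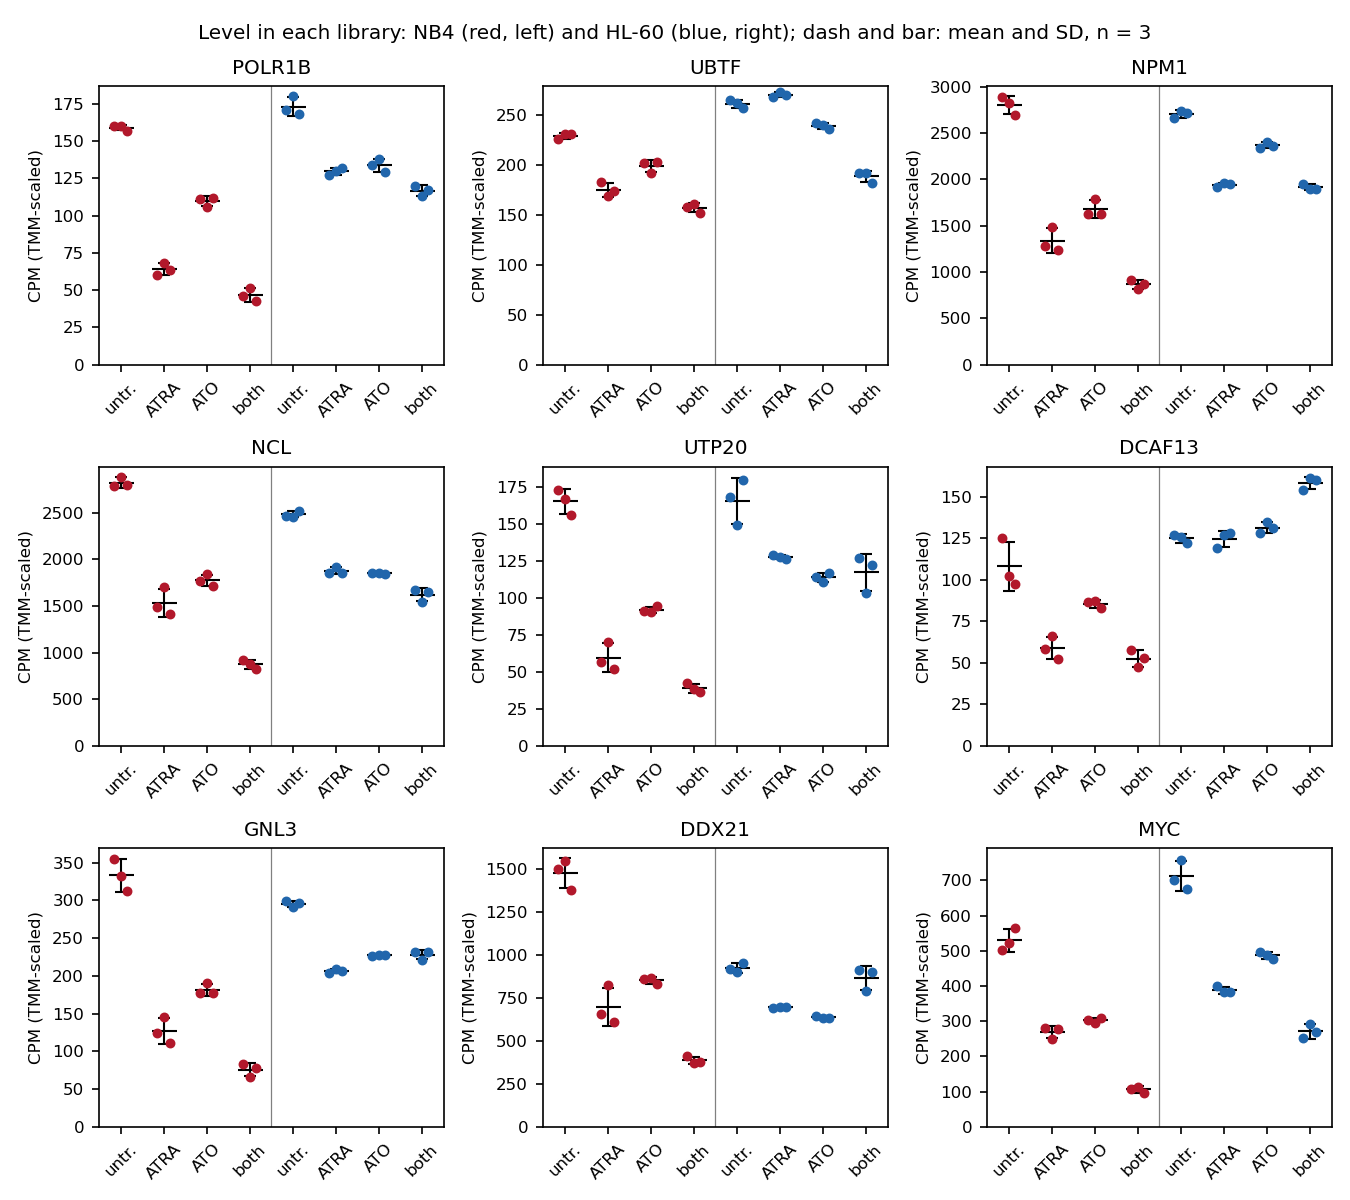
CPM (TMM-scaled) of 8 members and MYC in each library, with NB4 in red on the left and HL-60 in blue on the right of each panel; dashes and bars are the mean and SD of 3 libraries, and each axis starts at 0. In NB4 every panel is lowest with both drugs, whereas in HL-60 DCAF13 is highest with both drugs (154 to 161 against 122 to 127 untreated).

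FBL, the methyltransferase of the box C/D particle, was the member of this group with the smallest fall in NB4, at 222, 225 and 237 in the untreated libraries, 153, 137 and 154 with ATRA, 200, 206 and 210 with ATO and 99.2, 113 and 88.8 with both drugs. Its ATO change was -0.17 ± 0.074 (adjusted p = 0.0783), and the combination brought it to -1.19 ± 0.075. In HL-60 it fell further than most members, at 368, 378 and 350 in the untreated libraries, 252, 250 and 246 with ATRA, 295, 303 and 285 with ATO and 166, 197 and 176 with both drugs, a change of -1.01 ± 0.053 with both drugs. Its core partners NOP56 and NOP58, which hold the guide RNA in that particle, changed by -1.45 and -1.37 under the NB4 combination and by -0.61 and -0.23 under the HL-60 combination. NOLC1, a chaperone that brings snoRNPs to the nucleolus, stood in NB4 at 768, 791 and 788 in the untreated libraries, 435, 435 and 408 with ATRA, 639, 627 and 643 with ATO and 270, 277 and 235 with both drugs, and in HL-60 all its treated libraries (407 to 516) lay below the untreated ones (597 to 605).

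The small-subunit processome is the largest group, with 16 tested genes. In NB4 all 16 were lower under ATRA and under the combination and 15 under ATO (DDX52 being the exception), and 14 of 16 fell at least 2-fold with both drugs. In HL-60 14 were lower under ATRA, 12 under ATO and 10 under the combination, where 2 were higher and 4 not called.

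UTP20, a long scaffold protein of the processome, had the largest fall of the group in NB4. It stood at 173, 167 and 156 in the untreated libraries, 56.7, 70.4 and 51.7 with ATRA, 90.9, 90.3 and 94.2 with ATO and 42.1, 38.2 and 36.2 with both drugs. The combination left 23.3% of the untreated level (-2.10 ± 0.09, adjusted p = 4.24e-15). Its level in HL-60 was 168, 149 and 180 in the untreated libraries, 129, 128 and 126 with ATRA, 114, 111 and 117 with ATO and 127, 103 and 122 with both drugs, with all treated libraries below the untreated ones, the ATO libraries below those with ATRA, and the combination overlapping both. This is the gene whose E-box ends 5 bases before the transcription start in the sequence above.

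HEATR1, which is needed for transcription of the rRNA precursor, stood in NB4 at 196, 193 and 173 in the untreated libraries, 91.6, 111 and 90.3 with ATRA, 138, 138 and 133 with ATO and 77.6, 67.7 and 70 with both drugs. WDR43, a subunit of the same early particle, stood there at 229, 225 and 217 in the untreated libraries, 114, 131 and 98.7 with ATRA, 157, 159 and 155 with ATO and 78.1, 75.4 and 72.3 with both drugs. Both ended in separate groups in which the combination was lowest, with changes of -1.39 ± 0.079 and -1.58 ± 0.077. In HL-60 the changes under the combination were -0.35 ± 0.044 and -0.17 ± 0.046, and HEATR1 libraries with both drugs (247 to 273) overlapped those with ATRA (269 to 280). NAT10, which acetylates cytidines in rRNA, stood in NB4 at 222, 218 and 218 in the untreated libraries, 141, 136 and 138 with ATRA, 178, 185 and 181 with ATO and 91.5, 102 and 81.2 with both drugs, and in HL-60 it was 1 of the members that the combination lowered beyond either drug, at 166 to 176 against 213 to 226 with a single drug.

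DCAF13, a processome subunit also known as an adaptor of a ubiquitin ligase, was the member that rose most in HL-60. There it stood at 127, 126 and 122 in the untreated libraries, 119, 127 and 128 with ATRA, 128, 135 and 131 with ATO and 154, 161 and 160 with both drugs. Single-drug libraries stayed near the untreated level and all combination libraries lay above every other (0.36 ± 0.047, adjusted p = 7.02e-07). In NB4 it stood at 125, 102 and 97.1 in the untreated libraries, 58, 65.9 and 52.5 with ATRA, 86.4, 87.4 and 82.8 with ATO and 57.5, 47.2 and 52.7 with both drugs, lower with each treatment, but its ATO call (-0.35 ± 0.093) was lost without untreated replicate 1, the highest of that group. DDX52, an RNA helicase, likewise rose in HL-60 with both drugs, from 49.2, 51.6 and 54.1 to 71.5, 55.8 and 67.1, and had the smallest fall of all members in NB4, -0.41 ± 0.081.

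The other 10 tested processome genes ranged from -0.78 for UTP6 to -1.73 for RRP9 under the NB4 combination. RRP9 binds the guide RNA of the processome, and the DEAD-box helicase DDX10 came next at -1.70, followed by UTP15, which links the processome to transcription, at -1.68. NOP14 changed by -1.58, MPHOSPH10 by -1.39, IMP4 by -1.37, UTP14A by -1.28, UTP18 by -1.15 and UTP4 by -1.11. The ATO call of UTP4 in NB4, -0.17 ± 0.062, was lost whichever of the 6 libraries was left out. In HL-60 UTP15, UTP18, MPHOSPH10 and DDX10 were the 4 not called under the combination, with changes of -0.01, -0.09, -0.10 and -0.06. In the same line, the ATO calls of RRP9 and UTP14A were each lost without ATO replicate 1 or 3 or untreated replicate 2, and also without untreated replicate 1 (RRP9) or 3 (UTP14A).

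Among the 6 genes of pre-40S maturation, which finish the small subunit, all were lower in NB4 with ATRA and with both drugs and 4 with ATO. RIOK1, an atypical kinase of late particles, stood in NB4 at 92.5, 92.6 and 87.7 in the untreated libraries, 46.6, 52.9 and 44 with ATRA, 60.3, 61.2 and 59.4 with ATO and 35.9, 33.3 and 28.4 with both drugs. PNO1, whose site is printed above, and TSR1, a late GTPase-like factor, changed by -1.54 and -1.21 under the combination. NOB1, the endonuclease that makes the last cut of the small-subunit rRNA, stood in NB4 at 114, 117 and 120 in the untreated libraries, 84, 72.9 and 84.4 with ATRA, 111, 107 and 113 with ATO and 61.6, 62 and 47.8 with both drugs, with an ATO change that did not pass the test (-0.10 ± 0.083, adjusted p = 0.388). RRP12, an export factor of both subunits, fell least in this group, at 142, 138 and 137 in the untreated libraries, 110, 106 and 118 with ATRA, 106, 106 and 101 with ATO and 90.5, 88.9 and 75 with both drugs. Its ATRA and ATO libraries lay close together there, and its ATRA change in NB4, -0.30 ± 0.071, was the smallest of all members.

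BYSL, which encodes bystin, differed between the lines more than any other member before treatment. It stood in NB4 at 51.3, 55.4 and 56.6 in the untreated libraries, 32.3, 30.6 and 32.7 with ATRA, 49.9, 48.9 and 51.8 with ATO and 23.8, 24.3 and 17.3 with both drugs, and in HL-60 at 678, 688 and 633 in the untreated libraries, 614, 610 and 618 with ATRA, 608, 609 and 610 with ATO and 617, 704 and 646 with both drugs. The lowest HL-60 library, at 608 CPM, lay above the highest NB4 library, at 56.6 CPM. In NB4 the combination libraries were lowest (-1.32 ± 0.097), while in HL-60 none of the 3 treatments passed the test (-0.11 ± 0.045, -0.12 ± 0.045 and -0.01 ± 0.045). In HL-60 the calls of PNO1 were lost without 1 of 3 libraries under ATO (ATO replicates 1 and 3, untreated replicate 2) and without replicate 2 of either group under the combination.

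The 15 large-subunit assembly genes were all lower in NB4 with ATRA, and all lower by at least 2-fold with both drugs, and 14 were lower with ATO. GNL3, which encodes the nucleolar GTPase nucleostemin, stood in NB4 at 355, 332 and 312 in the untreated libraries, 124, 146 and 111 with ATRA, 177, 191 and 177 with ATO and 83.6, 66.2 and 77.2 with both drugs. The combination left 22.6% of the untreated level (-2.15 ± 0.092, adjusted p = 4.12e-15), the second-largest fall of the members, and its ATO change (-0.89 ± 0.089) was the largest under that drug. In HL-60 it stood at 299, 291 and 297 in the untreated libraries, 204, 209 and 206 with ATRA, 226, 228 and 227 with ATO and 232, 221 and 231 with both drugs, so that the combination libraries overlapped those with ATO and lay above those with ATRA.

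MRTO4, a placeholder for the ribosomal stalk protein, stood in NB4 at 147, 171 and 168 in the untreated libraries, 75.6, 68.4 and 73.3 with ATRA, 119, 115 and 130 with ATO and 41.9, 45.2 and 36.7 with both drugs (-1.98 ± 0.082 under the combination). Its HL-60 libraries were at 170, 170 and 162 in the untreated libraries, 116, 112 and 110 with ATRA, 131, 132 and 134 with ATO and 102, 103 and 104 with both drugs, 1 of the larger falls in that line (-0.69 ± 0.045). EBNA1BP2, an early large-subunit factor, changed with ATRA by -1.23 in NB4 and -0.66 in HL-60, the second-largest ATRA fall in HL-60 after LYAR.

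PES1, BOP1 and WDR12 form the PeBoW complex, which is needed to process the large-subunit rRNAs. In NB4 their changes under the combination were -1.39 ± 0.08, -1.57 ± 0.11 and -1.61 ± 0.07. WDR12 stood in NB4 at 129, 135 and 125 in the untreated libraries, 59.1, 63.3 and 55.2 with ATRA, 95.1, 98.6 and 98.7 with ATO and 46, 40.9 and 41 with both drugs. In HL-60 the 3 subunits differed: under the combination BOP1 changed by -0.85 ± 0.098 and PES1 by -0.49 ± 0.049, whereas WDR12 did not pass (0.02 ± 0.047, adjusted p = 0.71). WDR12 stood in HL-60 at 151, 165 and 151 in the untreated libraries, 132, 129 and 128 with ATRA, 140, 143 and 139 with ATO and 155, 158 and 156 with both drugs, with combination libraries inside the untreated range. BOP1 combination libraries in HL-60 were uneven, at 51, 75.6 and 57.5. In HL-60 the ATO call of WDR12 was lost without ATO replicate 1, ATO replicate 3 or untreated replicate 2, and that of BOP1 without untreated replicate 2. In NB4 the ATO call of PES1 was lost without ATO replicate 1.

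RRS1, which recruits the particle that carries the small 5S rRNA, stood in NB4 at 43.5, 49 and 44.6 in the untreated libraries, 29.4, 24.2 and 26.1 with ATRA, 39.3, 36.1 and 35.1 with ATO and 17.8, 17.5 and 14.9 with both drugs. GRWD1, a histone-binding nucleolar protein, and NIP7, a factor of rRNA cleavage, changed by -1.25 and -1.63 under the NB4 combination. The remaining genes of the group, NOP16, RRP1B, DDX18, GNL2, PPAN and NOP2, changed by -1.62, -1.37, -1.17, -1.07, -1.44 and -1.12. NOP2, a cytosine methyltransferase of rRNA, stood at only 0.375 to 1.54 CPM in NB4, and its call under ATRA (-0.74 ± 0.314, adjusted p = 0.0473) was lost whichever of the 6 libraries was left out. The calls of PPAN under ATO were lost without 1 of 3 libraries in NB4 (ATO replicate 2, untreated replicates 2 and 3) and 1 of 4 in HL-60 (ATO replicates 1 and 3, untreated replicates 1 and 2), and its HL-60 combination call without combination replicate 2 or untreated replicate 1.

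The cofactors DDX21 and LYAR were both among the 5 largest falls in NB4. LYAR, a zinc-finger protein of rRNA transcription and processing, had the largest fall of all members, standing at 254, 233 and 216 in the untreated libraries, 79.3, 85.9 and 66.6 with ATRA, 137, 146 and 134 with ATO and 51.1, 46 and 51.8 with both drugs (-2.25 ± 0.086, 21% of the untreated level, adjusted p = 5.03e-16). In HL-60 it was also the member that fell most with ATRA, at 129, 133 and 127 in the untreated libraries, 60.4, 60.3 and 55.6 with ATRA, 90.2, 91.9 and 89.7 with ATO and 60.8, 60.8 and 65.8 with both drugs (-1.13 ± 0.053). DDX21, an RNA helicase that couples Pol I transcription to processing, stood in NB4 at 1500, 1550 and 1380 in the untreated libraries, 654, 826 and 612 with ATRA, 859, 868 and 829 with ATO and 412, 371 and 376 with both drugs (-1.94 ± 0.083). HL-60 libraries held it at 917, 899 and 955 in the untreated libraries, 692, 695 and 698 with ATRA, 645, 636 and 634 with ATO and 916, 789 and 900 with both drugs. There it was lower with each drug alone, but 2 of 3 combination libraries were within the untreated range, and the change with both drugs did not pass (-0.07 ± 0.046, adjusted p = 0.191).

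The combination was then compared with each drug. Against ATRA in NB4, 47 members were lower, 0 higher and 4 not called (RRN3, DCAF13, DDX52 and NOP2), beside 21.2% lower among all genes, with a median of -0.52. With library sizes alone 41 were lower, and the share of higher genes among all calls went from 44.3% to 68.4%. NOP14 (-0.95), PPAN (-0.94) and DDX21 (-0.88) fell furthest in that comparison. Against ATO in NB4, 51 were lower, beside 28.3% lower and 56.9% called either way among all genes, with a median of -1.02, led by MRTO4 (-1.55), LYAR (-1.48), DDX10 and RRP9 (both -1.33). All 3 combination libraries lay below all 3 ATRA libraries for 45 of the 52 genes and below all ATO libraries for 51. These counts include the untested PWP2 and were not made over all genes, so no background share can be set beside them.

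In HL-60 the combination differed from ATRA in both directions, with 17 members lower and 14 higher, beside 21.9% and 22% of all genes, and a median of 0.01. UBTF (-0.51), FBL and BOP1 (both -0.47) fell furthest, and DDX52 (0.43), UTP15 (0.37) and DCAF13 (0.35) rose most. Against ATO 22 were lower and 11 higher, beside 27% and 27.5%, with a median of -0.08. FBL (-0.71), POLR1E (-0.63) and LYAR (-0.53) fell furthest there, and DDX21 (0.45), RRN3 (0.34) and the pair DDX52 and MPHOSPH10 (both 0.32) rose most among those called. The members called lower were 33.3% and 43.1% of those tested in the 2 comparisons. With library sizes alone 29 were lower and 7 higher against ATO, and the share of higher genes among all calls went from 50.5% to 39.6%.

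Whether the combination differed from the sum of the single-drug log2 changes was tested as an interaction, in which a negative value means that the pair lowered a gene by more than the sum. The median interaction in NB4 was -0.11 against -0.062 over all genes. There 11 members (21.6% of those tested) had a negative and 0 a positive interaction, beside 12.5% and 6.14% of all genes. They were PPAN (-0.55 ± 0.188), BYSL, NOLC1, NOB1, FBL, MRTO4, NOP16, RRS1, NAT10, NOP14 and NOP56, down to -0.27 for the last. The count rested on single libraries: it was 4 without combination replicate 3, 5 without ATRA replicate 1 or untreated replicate 1, 6 without ATO replicate 3 or untreated replicate 2, and 7 without ATO replicate 1 or untreated replicate 3. Without ATRA replicate 2, the library that stood apart, 13 were negative and 1 positive. For NPM1, UTP20, GNL3, LYAR and DDX21 the NB4 interaction did not pass, with values of 0.10 ± 0.094, 0.22 ± 0.124, 0.11 ± 0.125, 0.10 ± 0.116 and -0.07 ± 0.114.

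In HL-60 the interaction went the other way. It was positive for 31 members and negative for 1, beside 14.4% and 18.1% of all genes, with a median of 0.27 against -0.056. DDX21 had the largest value (0.85 ± 0.065, adjusted p = 1.32e-09), followed by UTP15 (0.66), MPHOSPH10 (0.61) and LYAR (0.60). The single negative member was UBTF (-0.40 ± 0.057, adjusted p = 1.3e-05). By role the positive calls covered 11 of 16 processome genes, 8 of 15 large-subunit genes, 5 of 6 pre-40S genes, 3 of 6 scaffold genes, 2 of 6 Pol I genes and both cofactors. Leaving out any 1 of the 12 libraries gave 31 to 36 calls, the most (33 positive and 3 negative) without combination replicate 2, which stood apart.

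**Figure D4:**
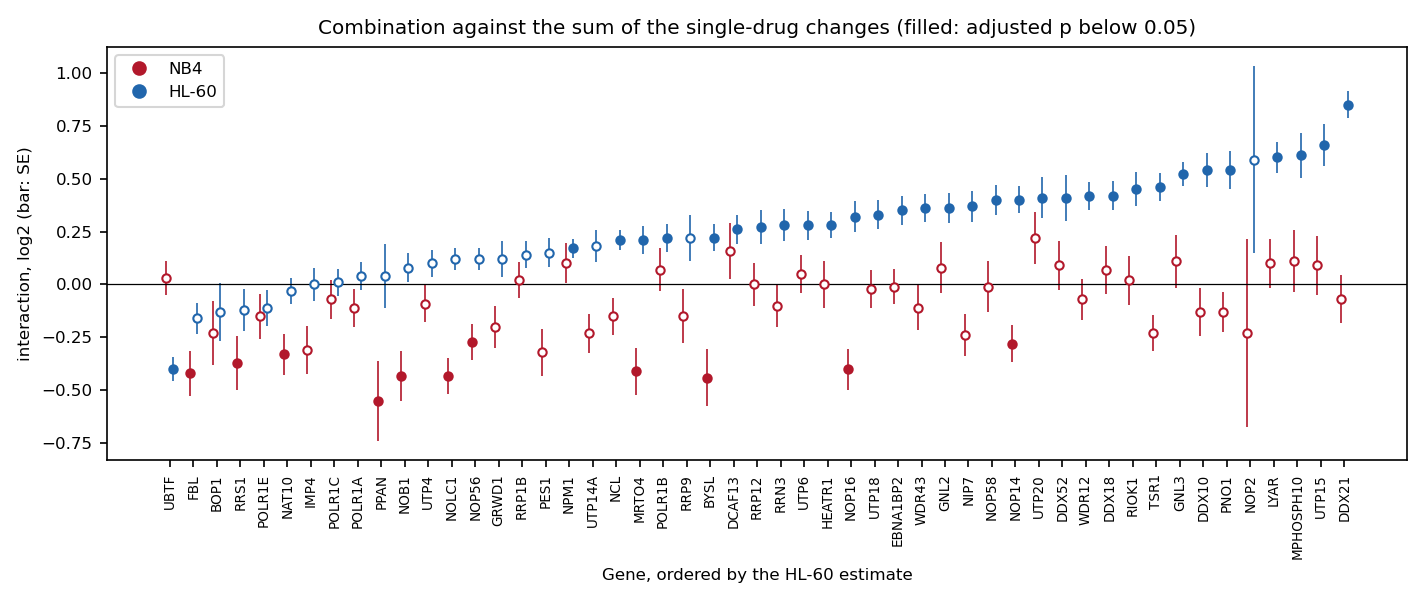
Interaction (log2, bars are SE) of ATRA and ATO for each of the 51 tested members in NB4 (red) and HL-60 (blue), ordered by the HL-60 estimate; filled points have an adjusted p below 0.05. The 31 filled blue points above 0 end at DDX21 (0.85), and the 11 filled red points all lie below 0.

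The response of the lines was compared in a fit of all 24 libraries, in which a negative value means a lower (more negative) change in NB4. For ATRA, 46 members were lower in NB4 relative to HL-60 and 0 higher, beside 16.8% and 17.7% of all genes, with a median of -0.55. UTP20 differed most (-1.10 ± 0.119, adjusted p = 6.48e-09), and FBL, NOP14, RRP12, GRWD1 and NOP2 did not pass. Without NB4 ATRA replicate 2 the count was 44. For ATO, 6 members (11.8% of those tested) were lower and 0 higher, beside 6% and 7.11% of all genes, with a median of -0.08. The 6 were NPM1 (-0.54 ± 0.075), GNL3 (-0.49), DCAF13 (-0.41), UTP18 and WDR12 (both -0.26) and NCL (-0.25). With library sizes alone the count was 3, and the share of higher genes among all calls went from 54.2% to 70.4%. For the combination 49 were lower, beside 22.7%, with a median of -1.06 against 0.105 over all genes. DDX21 differed most (-1.84 ± 0.101, adjusted p = 5.92e-16), then GNL3 (-1.76) and UTP15 (-1.65), and UBTF (-0.08 ± 0.064) and FBL (-0.16 ± 0.094) did not pass.

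The lines shared no library, so the sizes of their responses can be set side by side as a description over the 51 members. Pearson's r between the NB4 and HL-60 log2 changes was 0.635 for ATRA, 0.63 for ATO and 0.42 for the combination, and Spearman's rho 0.522, 0.58 and 0.353. These members share the libraries they were counted in, and no test was made.

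Before treatment the lines differed in both directions. In NB4 relative to HL-60, 16 members were higher, 20 lower (39.2%) and 15 not called, with a median of -0.05. Among all genes 29.1% were higher and 34% lower, so both counts are near the shares of all genes. This split turned with library sizes alone, which gave 22 higher and 12 lower. BYSL was 8.17% of its HL-60 level (-3.61 ± 0.078), and POLR1C (-1.58 ± 0.052), HEATR1 (-0.86) and POLR1E (-0.79) were also lower. GRWD1 was highest in the other direction, at 300, 313 and 324 CPM in NB4 against 118, 123 and 112 in HL-60 (1.41 ± 0.067), followed by LYAR (0.85) and UTP15 (0.70). NPM1 (0.05 ± 0.053) and UTP20 (0.00) did not pass.

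Other genes of the pathway were counted from lists made for the same roles. Of 121 further ribosome biogenesis genes, 101 were lower and 5 higher in NB4 with ATRA, 72 and 4 with ATO, and 108 and 2 with both, with medians of -0.57, -0.23 and -0.90. Among all genes 28.6% were lower and 31.3% higher with ATRA, 19.6% and 21.2% with ATO, and 32.8% and 35.4% with both. In HL-60 86 were lower and 8 higher with ATRA, 64 and 1 with ATO, and 70 and 13 with both, with medians of -0.23, -0.19 and -0.22. The shares of all genes there were 23.3% lower and 25.2% higher with ATRA, 12.1% and 16.5% with ATO, and 29.7% and 30.7% with both. The interaction of the 121 genes in HL-60 was positive for 53 and negative for 6, beside 14.4% and 18.1% of all genes, with a median of 0.19. Within this list 12 of 15 other Pol I subunits and initiation factors were lower with both drugs in NB4 (median -0.66), 32 of 36 other small-subunit factors, 42 of 44 other large-subunit factors and 12 of 14 genes of the RNA exosome and its partner exonuclease (median -0.73). The 15 Pol I genes include POLR2E, POLR2F, POLR2H, POLR2K and POLR2L.

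Genes of the 79 cytosolic ribosomal proteins, the parts of the finished ribosome, were called in both directions. In NB4 32 were higher and 9 lower with ATRA, 17 and 14 with ATO, and 26 and 25 with both, with medians of 0.10, 0.08 and 0.00. Among all genes 31.3% were higher and 28.6% lower with ATRA, and 21.2% and 19.6% with ATO. The ATO counts are near those shares (17.7% lower), while 11.4% were lower with ATRA. With both drugs the 26 and 25 of 79 are near the 35.4% higher and 32.8% lower among all genes. The ribosomal protein genes held 6.63% ± 0.238 (SD, n = 3) of counts in untreated NB4 cells and 6.97% ± 0.239 with both drugs. In HL-60 3 were higher and 34 lower with both drugs, beside 30.7% and 29.7% of all genes, with a median of -0.11. Their interaction there was negative for 44 of 79 and positive for 0, beside 18.1% and 14.4% of all genes. This is the opposite sign to that of the assembly factors. The share of counts in HL-60 was 7.27% ± 0.407 in untreated cells and 6.36% ± 0.376 with both drugs.

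The 2 other nuclear polymerases were counted beside RNA polymerase I. Their lists leave out the POLR2 genes counted above with the other Pol I subunits. With both drugs in NB4, 8 of 10 Pol III subunit genes were lower (median -0.71) and 4 of 7 Pol II subunit genes (median -0.29), and in HL-60 6 of 10 and 5 of 7. Among all genes 32.8% were lower and 35.4% higher with both drugs in NB4, and 29.7% and 30.7% in HL-60. Of 20 proliferation genes, 13 were lower and 2 higher with both drugs in NB4 (median -0.40), and 18 lower and 1 higher in HL-60 (median -0.54). Their part in the changes of the members was not tested.

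**Figure D5:**
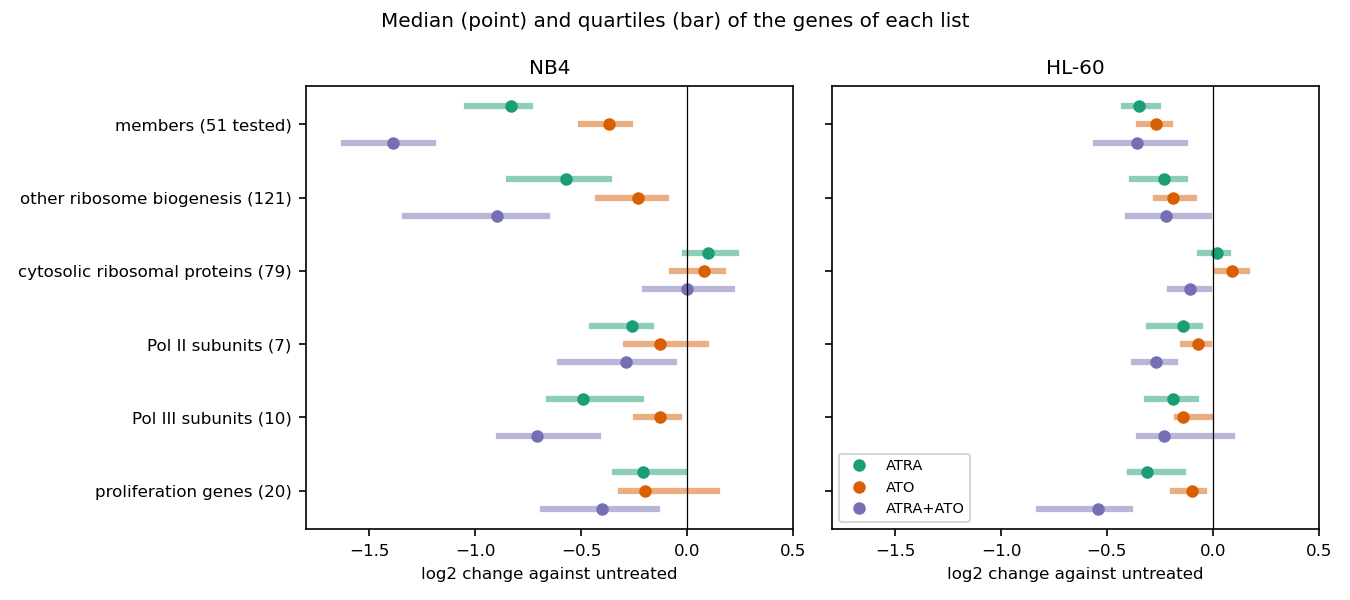
Median (points) and quartiles (bars) of the log2 change against untreated cells in 6 gene lists, for ATRA (green), ATO (orange) and both drugs (purple), in NB4 and HL-60 on one scale. In NB4 the members reach a median of -1.39 with both drugs while the ribosomal proteins stay at 0.00.

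MYC, in CPM, stood in NB4 at 501, 523 and 564 in the untreated libraries, 280, 249 and 277 with ATRA, 303, 296 and 308 with ATO and 108, 114 and 96.3 with both drugs. Its change with both drugs was -2.32 ± 0.071 (adjusted p = 1.11e-17), with an interaction of -0.55 ± 0.096 (adjusted p = 0.000277). In HL-60 the libraries were at 700, 759 and 677 in the untreated libraries, 400, 382 and 383 with ATRA, 496, 489 and 476 with ATO and 251, 293 and 269 with both drugs, a change of -1.38 ± 0.052 with both drugs, and the interaction was 0.02 ± 0.073 (adjusted p = 0.833). In both lines all 3 combination libraries of MYC lay below all libraries with a single drug. The difference between the lines for MYC was -0.10 ± 0.087 under ATRA (adjusted p = 0.405), where 46 members differed, -0.26 ± 0.087 under ATO (adjusted p = 0.0443) and -0.92 ± 0.088 under the combination (adjusted p = 2.17e-10). Of 9 tested genes of the MYC network in NB4, 2 were lower and 5 higher with both drugs, and of 10 in HL-60, 6 were lower and 4 higher. The shares of all genes were 32.8% lower and 35.4% higher in NB4, and 29.7% and 30.7% in HL-60. The part of MYC in the members' changes was not tested.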

How the data were processed

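RNA was poly(A)-selected and sequenced as paired reads, per the labels' protocols. Per the submitters' processing notes, the authors used fastp, HISAT2, featureCounts and DESeq2 with GRCh38; the sources used here give no versions, annotation release or strandedness. The deposited values are raw counts per gene. Even values made up 74.4% of counts of 1 to 9 and 51.5% of those of 500 or more. Of 60655 genes 99.58% were named; positions and exon lengths are from GENCODE 29 on GRCh38.

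Counts were tested with edgeR 4.0.16 (R 4.3.3; filterByExpr, TMM, quasi-likelihood), 12 libraries per line (8 residual degrees of freedom) and all 24 for differences between lines (16), over 16 comparisons, 16370, 15895 and 17930 genes. P-values were adjusted by Benjamini-Hochberg over all genes tested and called below 0.05. Replicate spread, as edgeR's biological coefficient of variation, came to 8.78% (NB4), 7% (HL-60) and 7.98% (all). TPM were computed from exon lengths. The steps were tested on simulated data.

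The 52 members and all lists were chosen with earlier results of these data known. Members are named by role; in each comparison the largest falls and rises and calls against the majority are given. Alternatives were DESeq2 1.42.0, its size factors, library sizes alone, other count filters, halved counts, a stricter threshold, only the groups compared, a replicate block and each library left out. No sample was left out. Figures were drawn with matplotlib 3.10.9.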

Additional observations from a re-analysis of the deposited data

Results flagged for a closer look

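The interaction of ATRA and ATO, which sets the effect of 1 drug in the presence of the other against its effect alone, differed from 0 for 11 members in NB4, all negative, with PPAN lowest at -0.55. These are 21.6% of the 51 tested. Among all genes 18.7% were called either way, 12.5% negative and 6.14% positive. Without combination replicate 3 the count of members was 4. In HL-60 it differed for 32 of the 51 members tested, beside 32.5% of all genes. It was positive for 31 of the 51, beside 14.4% of all genes, with DDX21 highest at 0.85. UBTF was the negative one at -0.40.

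The response to a treatment differed between NB4 and HL-60 for 46 members (90.2%) under ATRA, beside 34.5% of all genes, with UTP20 the furthest at -1.10. It differed for 6 (11.8%) under ATO, with NPM1 at -0.54. Among all genes 13.1% were called either way there, 6% lower and 7.11% higher. Under the combination it differed for 49 (96.1%), beside 47.5% of all genes, with DDX21 at -1.84. In all of these the change was lower (more negative) in NB4.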

How the results depend on the processing

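The NB4 combination kept the call of each of 51 members under all alternatives (714 values), and the calls held in 706 of 714 values for ATRA in NB4 and in 713 for the combination against ATO. For the NB4 interaction, 11 members became 7 with library sizes alone, 3 at an adjusted p below 0.01, and 4 to 14 with single libraries left out (14 without NB4 ATRA replicate 2, of which 1 was positive). At that stricter threshold the NB4 interaction fell from 3056 to 1824 of all genes, HL-60 ATO from 4554 to 3020 and the line difference under ATO from 2349 to 1344. The 6 members of that last difference became 3 with library sizes alone, 11 with every gene of at least 1 read and 3 at the stricter threshold, with 4 to 8 when single libraries were left out. The E-box count of 21 became 9 in the upstream part alone. EBNA1BP2 turned from -0.13 to 0.02 (adjusted p = 0.693) between the untreated lines with library sizes alone. The cause was not tested.

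Library sizes alone moved the median log2 change of all genes by 0.107 under ATO in NB4, 0.144 for the combination against ATRA in NB4, -0.101 for the combination against ATO in HL-60, 0.135 for the line difference under the combination and 0.129 between the untreated lines.

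Residual correlations between samples of the same batch number were small (-0.0812 to 0.0383 in NB4, -0.00807 to 0.0589 in HL-60, 18 pairs each). In HL-60, however, 11 of 12 libraries correlated best with their own number, against 0 of 12 in NB4. The HL-60 libraries thus showed a weak pattern by batch number, and those of NB4 did not. With the replicate block 50 members were called under ATRA in NB4, 44 under ATO and 51 under the combination, and 43, 44 and 41 in HL-60; 10 and 32 were called for the interactions, so no count of members moved by more than 1.5 times.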

Other observations

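BYSL, which was 8.17% of its HL-60 level in untreated NB4 cells, lies on chromosome 6 from 41921188 to 41933046 (GRCh38). Its surroundings were looked at after its value had been seen. Of 27 tested protein-coding genes within 1 Mb, 22 were lower in NB4, 3 higher and 2 not called, beside 34% of all genes called lower. Of the 22, 20 were lower by at least 2 on the log2 scale, a limit for which no share of all genes was counted. MRPS10, which encodes a mitochondrial ribosomal protein, averaged 67.2 CPM in NB4 and 1120 CPM in HL-60 (log2 difference -4.06 ± 0.051 SE). MED20, the neighbour of BYSL and a subunit of the Mediator complex, averaged 25.5 and 490 CPM (-4.26 ± 0.056). TAF8, a general transcription factor, averaged 38.5 and 452 CPM (-3.56 ± 0.054), and CCND3, which encodes cyclin D3, 143 and 1010 CPM (-2.82 ± 0.061). RPL7L1 averaged 414 and 1720 CPM (-2.06 ± 0.046). The cause of the difference was not tested. POLR1C, with the second-largest difference between the untreated lines among the members, lies further along the same chromosome, from 43509702 to 43562419. That is outside the 1 Mb looked at, and a link between it and BYSL was not tested.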
